A study of Homo sapiens with 34 samples.

Results

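The 8 genes described here are transcription factors of the primitive streak and of the mesoderm that leaves it: T (brachyury), MIXL1, EOMES, MESP1, GSC, TBX6, HAND1 and FOXF1. They were chosen by name, as a set known from gastrulation, and all 8 were found among the 20255 genes of the expression table. RNA was sequenced during the differentiation of H1, an established human embryonic stem cell line, towards blood, with no haematopoietic cytokine added. The 34 samples were 1 of undifferentiated H1 cells (labelled no treatment) and 3 replicates of each of 11 differentiated populations: embryoid bodies (EBs) at day 0 (BMP4+hVEGF), unsorted cells at days 2 and 4 (hVEGF), and the sorted CD43- and CD43+ fractions of days 6, 9, 12 and 16 (hVEGF). All samples came from this 1 line, with no genetic change named in the labels. The treatments in brackets are those of the labels. Per the methods, the EBs were formed in medium with no BMP4 named and plated at day 0 into medium with BMP4, VEGF and Thiazovivin. They stayed in it until day 2. It was then replaced by a different medium with VEGF as its only added growth factor. Days 0 to 2 thus span the time in BMP4, and days 2 to 4 follow its removal and the change of medium. The part of these media in the values was not tested. At day 16 the sort also used CD45, and these populations, CD43-CD45- and CD43+/CD45+, are called CD43- and CD43+ cells below.

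During gastrulation, cells of the epiblast pass through the primitive streak and emerge as mesoderm or definitive endoderm. WNT, NODAL and BMP signals induce the streak, and T-box factors such as T and EOMES and homeodomain factors such as MIXL1 and GSC carry that signal into gene expression. MESP1 and TBX6 mark nascent mesoderm, and HAND1 and FOXF1 mark the lateral plate and extraembryonic mesoderm, the tissue that accompanies the first blood vessels and blood of the yolk sac.

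By the coordinates given with the values (GRCh38), T lies on chr6:166157656-166168700 on the minus strand and has 9 exons in its longest basic GENCODE v29 transcript. MIXL1 lies on chr1:226223618-226227054 on the plus strand and has 2 exons. EOMES lies on chr3:27715949-27722711, GSC on chr14:94768216-94770230 and TBX6 on chr16:30085793-30091887, all on the minus strand. MESP1 lies on chr15:89748661-89751310 and HAND1 on chr5:154474972-154478264, both on the minus strand. FOXF1 lies on chr16:86510527-86515418 on the plus strand. All 8 are annotated as protein-coding, and none overlaps another annotated gene.

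RefSeq promoter windows (GRCh38.p14, from 250 bases before to 50 after a transcript start) were matched for 6 of the 8 genes, and not for MESP1 and FOXF1. T, listed there as TBXT, has a window at each of a pair of starts. Both strands of each window were searched for motifs, and their shares are over all 35116 windows of the table. A site of FOXH1, which reads NODAL signals, was searched as AATCCACA and stood in 0.817% of windows. The SMAD letters, CAGAC, stood in 45.3% of windows. The letters read by TCF/LEF factors, which carry WNT signals, were CTTTGA and stood in 12.9%. A T-box site was searched as AGGTGTGA, found in 0.98%, and by its core, GGTGTG, which is part of the longer site and was found in 16.8%. The homeodomain letters, TAATCC, which can overlap the FOXH1 site, stood in 6.36% of windows. The GATA letters, AGATAA, stood in 10.3%. The 250 bases before the start are shown for MIXL1 and for the inner start of T, as 2 genes that peaked together at day 2, and for HAND1, which peaked later. Capitals mark the matches, 5′ to 3′ on the strand of the gene.
MIXL1, chr1:226223414-226223663, plus strand: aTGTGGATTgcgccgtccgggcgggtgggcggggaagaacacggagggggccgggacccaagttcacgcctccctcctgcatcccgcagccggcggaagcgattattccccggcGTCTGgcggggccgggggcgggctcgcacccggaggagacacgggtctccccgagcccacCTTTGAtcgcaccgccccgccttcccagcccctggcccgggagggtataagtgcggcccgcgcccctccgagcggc
T, chr6:166167852-166168101, minus strand: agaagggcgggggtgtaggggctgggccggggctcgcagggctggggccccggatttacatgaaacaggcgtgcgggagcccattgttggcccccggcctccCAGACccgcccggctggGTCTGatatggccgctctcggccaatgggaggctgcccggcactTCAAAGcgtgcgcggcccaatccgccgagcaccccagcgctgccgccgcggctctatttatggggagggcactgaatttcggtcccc
HAND1, chr5:154478228-154478477, minus strand: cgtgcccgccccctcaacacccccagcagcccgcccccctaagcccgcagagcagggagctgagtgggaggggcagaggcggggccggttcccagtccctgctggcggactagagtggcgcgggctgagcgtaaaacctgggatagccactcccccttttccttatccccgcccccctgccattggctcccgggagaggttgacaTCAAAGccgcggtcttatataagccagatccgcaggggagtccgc
The MIXL1 window held the FOXH1 letters with their first base at -249 from the start, the SMAD letters at -136 and the TCF/LEF letters at -76. The T window held the SMAD letters at -148 and -131 and the TCF/LEF letters at -87, and it lies inside the longer gene that GENCODE annotates, as do the last bases of the MIXL1 and HAND1 stretches. The HAND1 window held the TCF/LEF letters at -45. In the other matched windows the SMAD letters stood at -129 for GSC, at -187 for TBX6 and at 12 bases after the start for EOMES, and the outer T window held none of the motifs. These are matches of letters, and the data hold no measurement of binding.

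The deposited values are normalized tag counts. Sorted by size, they were the same in all 34 samples, so that a value is close to a rank within its sample, the total of 17856940 says nothing of depth, and the sequencing depth is unknown. Values were not divided by gene length. In the tests each gene was compared only with itself. The sums over a list given below add values of different genes and are set mainly by its genes of high value. Pearson's r between replicates ranged from 0.951 to 0.987 over all genes tested, lowest among the day 12 CD43- samples. SPN, which encodes CD43, ranged from 18 to 328 in the CD43- populations and from 2338 to 9460 in the CD43+ populations, with no overlap. PTPRC, which encodes CD45, ranged from 10084 to 15868 in day 16 CD43+ cells and from 18 to 42 in day 16 CD43- cells. POU5F1, the pluripotency factor OCT4, was at 25776 to 28960 at day 0, at 25776 in every day 2 sample and at 2176 to 2618 at day 4, so that the day 2 samples held streak factors and POU5F1 together. All samples before day 6 were bulk RNA of unsorted cells, in which fewer cells of a type and less RNA per cell cannot be told apart.

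The first question was how the factors changed between day 0 and day 2. A gene was called when its Benjamini-Hochberg adjusted p-value in limma was below 0.05 and its fold change above 4. All 8 factors rose, beside 4.40% of the 19788 genes tested that were called higher and 7.88% called in either direction.

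T, the T-box factor that defines the streak, was at 4, 3 and 6 at day 0 and at 12784, 13287 and 11964 at day 2. The 3 replicates of each day lay far apart from those of the other, with a log2 fold change of 11.25 ± 0.66 (SE, adjusted p = 2.52e-13 in limma). It was at 5 in the undifferentiated sample.

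MIXL1, a homeodomain factor of streak cells fated to mesoderm and endoderm, was at 24, 14 and 22 at day 0 and at 8684, 8802 and 8281 at day 2. Its log2 fold change was 8.71 ± 0.94 (SE, adjusted p = 3.65e-08). EOMES, a T-box factor needed for endoderm and cardiac mesoderm, went from 4, 6 and 8 to 4116, 3542 and 4243, a log2 fold change of 9.18 ± 0.77 (SE, adjusted p = 3.28e-10). Neither gene had a day 0 sample near a day 2 sample.

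GSC, the homeodomain factor of the organizer and anterior streak, was listed at 0 in all day 0 samples and at 372, 369 and 396 at day 2 (adjusted p = 5.19e-09). Against day 0 no fold change is given for a factor listed at 0 there. MESP1, the basic helix-loop-helix factor of the earliest cardiac and vascular mesoderm, was also listed at 0 in all day 0 samples and stood at 616, 678 and 744 at day 2 (adjusted p = 2.62e-12). The undifferentiated sample held 2 of each.

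TBX6, a T-box factor of presomitic and nascent mesoderm, differed from the others in starting well above 0. It was at 136, 122 and 94 at day 0 and at 1936, 1984 and 1563 at day 2, a log2 fold change of 3.96 ± 0.31 (SE, adjusted p = 6.97e-11). This was the lowest log2 fold change of the 5 factors that were above 0 in some day 0 sample.

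HAND1, a basic helix-loop-helix factor of lateral and extraembryonic mesoderm, was at 2, 0 and 5 at day 0 and at 2126, 2312 and 2370 at day 2, a log2 fold change of 9.76 ± 0.48 (SE, adjusted p = 6.17e-15). FOXF1, a forkhead factor of lateral plate and visceral mesoderm, was listed at 0 in all day 0 samples and stood at 556, 574 and 606 at day 2 (adjusted p = 3.6e-17). Both lateral plate factors were thus present on the same day as the streak factors.

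Between day 2 and day 4 the set split. Of the 8 factors, 6 fell, 1 rose and 1 was not called, against 4.53% of all genes called lower, 4.97% called higher and 9.50% called in either direction. This comparison shares the day 2 samples with the one before, so that the values of both are set side by side without a count of their agreement.

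At day 4, T was at 147, 119 and 68, a log2 fold change from day 2 of -6.89 ± 0.66 (SE, adjusted p = 3.67e-09). MIXL1 was at 126, 148 and 104, with a log2 fold change of -6.09 ± 0.94 (SE, adjusted p = 9.26e-06). EOMES was at 95, 76 and 60, a log2 fold change of -5.69 ± 0.77 (SE, adjusted p = 1.26e-06). Each of the 3 remained above its day 0 samples in every replicate. Their log2 fold changes of day 4 over day 0 were 4.37 ± 0.66 for T (SE, adjusted p = 3.57e-06), 2.62 ± 0.94 for MIXL1 (SE, adjusted p = 0.023) and 3.49 ± 0.77 for EOMES (SE, adjusted p = 0.000426). The MIXL1 call was lost without day 0 replicate 2 (adjusted p = 0.0722), without day 4 replicate 1 (0.0513) and without day 4 replicate 2 (0.0622), and at a pseudocount of 0.1 (0.139).

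MESP1 was at 14, 17 and 2 at day 4, a log2 fold change from day 2 of -6.19 ± 0.62 (SE, adjusted p = 7.87e-09). GSC was at 0, 0 and 3, a log2 fold change of -7.90 ± 0.83 (SE, adjusted p = 2e-08). Its day 0 values were all listed at 0 (day 4 against day 0, adjusted p = 0.541). TBX6 was at 112, 130 and 103, a log2 fold change from day 2 of -3.98 ± 0.31 (SE, adjusted p = 5.35e-11). Its day 4 samples overlapped those of day 0, with a log2 difference of -0.02 ± 0.31 (SE, adjusted p = 0.98).

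HAND1 was the factor that rose again. Its day 4 samples stood at 18763, 17356 and 18763, each above every day 2 sample, with a log2 fold change of 3.01 ± 0.48 (SE, adjusted p = 1.45e-05). The equal values of 2 samples are equal ranks. FOXF1 was at 1034, 751 and 940, above every day 2 sample, but its log2 difference of 0.64 ± 0.35 (SE, adjusted p = 0.156) did not pass the test. Against day 0, 6 of the 8 factors were called higher at day 4 and 0 lower, beside 7.28% of all genes called higher and 14.3% in either direction. Those not called were GSC and TBX6. The call of MESP1 against day 0 was lost at a pseudocount of 10 (log2 fold change below the threshold, adjusted p = 0.00352). In the day 0 and day 4 samples alone MESP1 did not reach 10 in 3 samples, so a fit of only these could not test it.

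**Figure D1:**
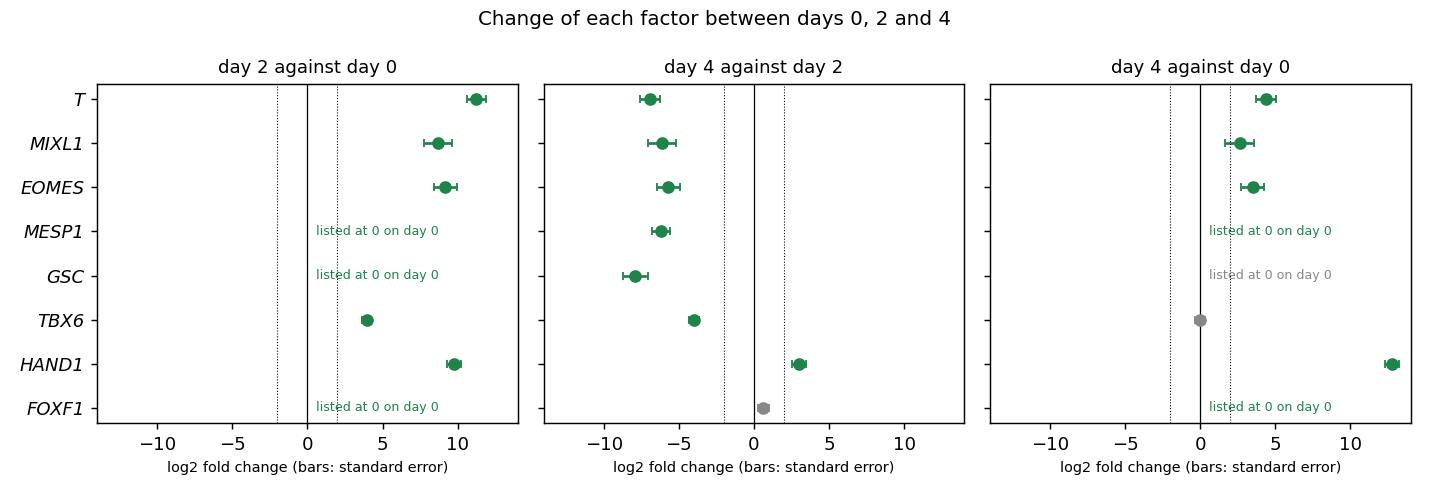
Log2 fold change of each factor (x axis, on the log2(value + 1) scale) in 3 comparisons among days 0, 2 and 4, with bars for the standard error and dotted lines at a 4-fold change. Green marks called factors and grey those not called, and a factor listed at 0 in every day 0 sample has no fold. Among the factors plotted, T shows the widest change from day 0 to day 2 (11.25), and HAND1 is the only one called higher from day 2 to day 4 (3.01).

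Other factors of the streak and nascent mesoderm moved at day 2 as well. Of 22 further genes of this kind, 20 rose from day 0 to day 2 and 0 fell, with a median log2 fold change of 5.61 (5.56 without the gene listed at 0 at day 0), while the median over all genes tested was -0.01. From day 2 to day 4, 11 of the 22 fell and 2 rose, with a median of -1.91 beside -0.03 over all genes. Beside this and the following list counts, 4.40% of all genes were called higher from day 0 to day 2 (7.88% in either direction). From day 2 to day 4 the shares were 4.97% higher and 4.53% lower. MSGN1, a presomitic mesoderm factor, was listed at 0 at day 0, reached 402 to 492 at day 2 and stood at 4 to 68 at day 4. EVX1, a homeodomain factor of the posterior streak, went from 1 to 4 at day 0 to 4428 to 4783 at day 2 and 228 to 289 at day 4. MESP2, the neighbour and close relative of MESP1, went from 16 to 24 at day 0 to 391 to 440 at day 2 and 17 to 20 at day 4. APLNR, the apelin receptor of early mesoderm, departed from this course, at 4 to 36 at day 0, 25856 in each day 2 sample and 29015 to 37178 at day 4. Those APLNR values are again shared ranks.

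Of 22 other lateral plate and extraembryonic mesoderm factors, 21 rose between days 0 and 2 and 12 rose between days 2 and 4, with 0 falls in either comparison. The medians were 4.40 (4.44 without the gene listed at 0 at day 0) and 2.32. GATA6 was at 0 to 4 at day 0, 2216 to 2702 at day 2 and 2324 to 2732 at day 4, and GATA4 was at 0 to 3, 648 to 886 and 902 to 1057. HAND2, the relative of HAND1, was at 0 to 1 at day 0, 8 to 20 at day 2 and 1732 to 2865 at day 4, a log2 fold change from day 2 to day 4 of 7.15 ± 0.50 (SE, adjusted p = 9.7e-12). ISL1 stood at 0 to 4, 451 to 641 and 142 to 170, and its values at day 4 lay below those of day 2.

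The pathways known to induce the streak were measured in the same samples. Of 24 WNT ligands and targets, 14 rose and 2 fell by day 2, and 3 rose and 10 fell between days 2 and 4. WNT3A, a streak ligand, was at 8 to 12 at day 0, 492 to 554 at day 2 and 7 to 12 at day 4, and WNT8A was at 1 to 2, 770 to 886 and 71 to 110. DKK1, a secreted WNT inhibitor, was at 2 to 6, 1916 to 2209 and 112 to 138, and DKK4 was listed at 0 at day 0 and day 4 and stood at 232 to 314 at day 2. WNT11 went the other way, at 2 to 4, 7 to 8 and 432 to 570.

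Of 20 genes of the NODAL pathway, 6 rose and 0 fell from day 0 to day 2, and 1 rose and 5 fell from day 2 to day 4. CER1, a secreted inhibitor of NODAL, was at 22 to 49, 3419 to 4504 and 13 to 28. TDGF1, the NODAL co-receptor, was already at 5779 to 7154 at day 0, stood at 4286 to 4779 at day 2 and fell to 80 to 116 at day 4. Of 20 BMP pathway genes, 12 rose and 0 fell from day 0 to day 2. After that 1 rose, BMPER (log2 fold change of 3.66), and 1 fell, ID4 (-2.03). BMP4 itself was at 18 to 40, 1332 to 1534 and 4758 to 4938, and MSX1, a target of BMP signals, was at 0 to 5, 1403 to 1783 and 2520 to 3188. From day 2 to day 4 neither BMP4 nor MSX1 was called (log2 differences of 1.76 and 0.85). Of 16 FGF genes, 4 rose and 1 fell from day 0 to day 2, and 1 rose and 6 fell after that. FGF8 was at 3 to 30, 207 to 248 and 0 to 4, and FGF17 at 3 to 13, 1862 to 2064 and 35 to 66. Some genes stand in more than 1 list, as CER1, TDGF1, SOX17 and BMP4 do.

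Markers of other cell types changed on the same days, and their part in the values of the 8 factors was not tested. Of 12 definitive endoderm markers, 4 rose from day 0 to day 2, among them SOX17 from 1 to 2 up to 994 to 1222, and the summed level of the list went from 691 to 858 at day 0 to 5660 to 6398 at day 2, with TTR at 0 on both days. From day 2 to day 4, 5 of the 12 rose and 1 fell, with HNF4A and APOA1 the largest rises. The sum stood at 2684 to 3446. CER1 was the 1 that fell (log2 fold change of -7.61 ± 0.79, SE), and at day 2 it made up most of the sum. Of 13 trophoblast and amnion markers tested, 7 rose, and over the 14 listed in the table the sum went from 1202 to 1597 up to 6507 to 6724. At day 4 it stood at 10444 to 11753, with 2 of the 13 called higher and 0 lower than at day 2. GATA3 was listed at 0 at day 0 and stood at 915 to 1095 at day 2, and TFAP2A was at 1 to 6 and then 1436 to 1542. Of 11 pluripotency markers, 2 fell between days 0 and 2 and 5 between days 2 and 4, and their sum went from 116105 to 135757 at day 0 to 83183 to 90924 at day 2 and 26628 to 30390 at day 4. Of 8 neuroectoderm markers tested, 1 rose and 1 fell from day 0 to day 2, and 2 fell and 0 rose from day 2 to day 4. From day 2 to day 4, 5 of 9 blood, 6 of 10 endothelial and 8 of 10 mesenchymal markers rose. The sum of the mesenchymal list was 10539 to 12945 at day 2 and 133067 to 191879 at day 4, and that of the blood list 193 to 214 and 2763 to 3408, with PTPRC listed at 0 at both.

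**Figure D2:**
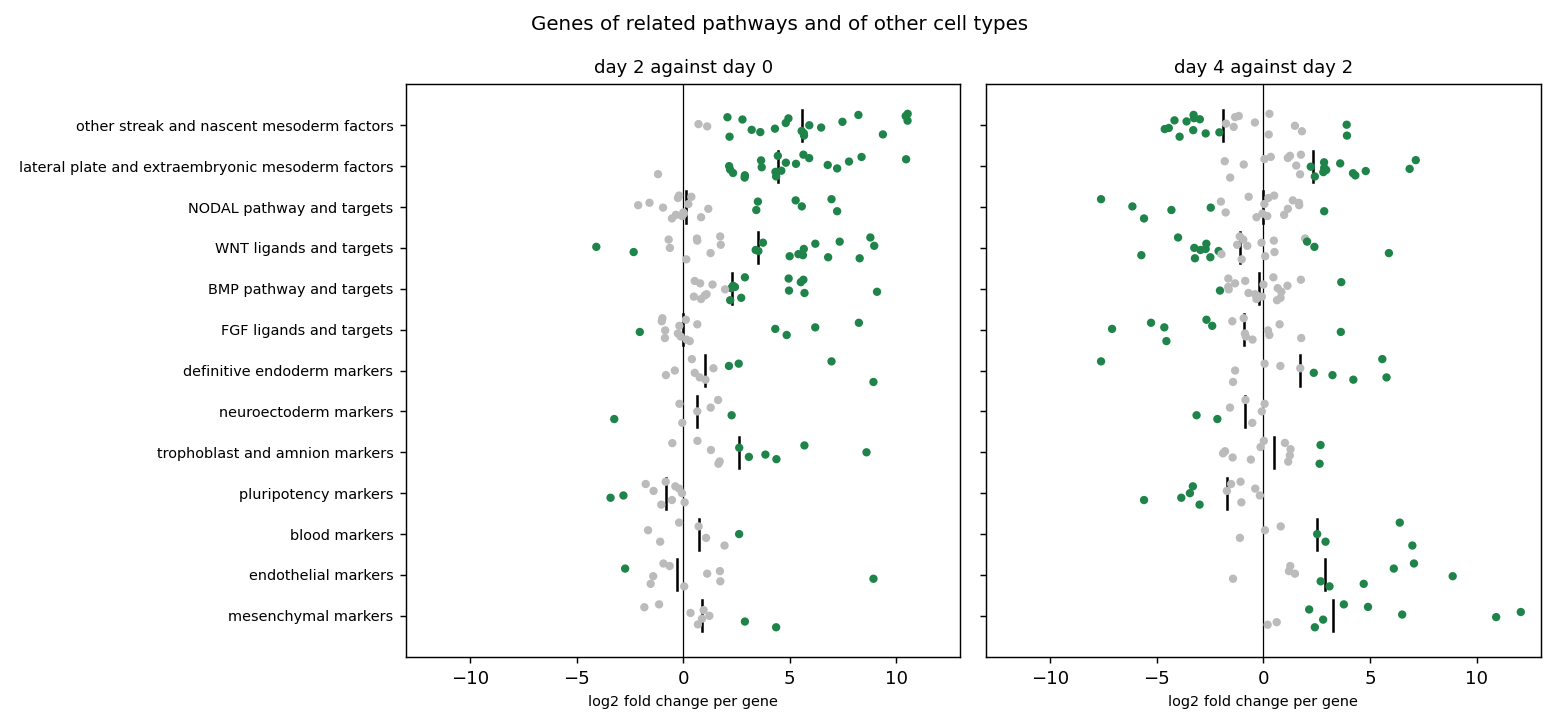
Log2 fold change of each gene of 13 lists (x axis), at left between days 0 and 2 and at right between days 2 and 4. Points are genes, green where called, and the vertical bar is the median of the points. Genes listed at 0 throughout a compared group are left out. Points of the streak and lateral plate lists lie mainly to the right on day 2, and at day 4 the streak points lie mainly to the left.

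From day 4 to day 6 the cells were sorted, and the 8 factors were compared between unsorted day 4 cells and each sorted population. In CD43- cells 2 of the 8 fell and 0 rose, against 2.77% of all genes called lower and 7.71% in either direction. In CD43+ cells 5 fell and 0 rose, against 7.73% and 14.5%. EOMES was at 1 to 4 in both day 6 populations (log2 fold change of -4.63 ± 0.77 in each, adjusted p = 2.37e-05 in CD43- and 1.48e-05 in CD43+ cells). MIXL1 was at 29, 36 and 4 in CD43- and at 23, 20 and 14 in CD43+ cells. The log2 fold changes from day 4 were -2.83 ± 0.94 and -2.68 ± 0.94 (SE, adjusted p = 0.0161 and 0.019). The first of these calls was lost without day 6 CD43- replicate 3 (adjusted p = 0.122), and the other without day 4 replicate 2 (0.0524) or day 6 CD43+ replicate 3 (0.0583). At a pseudocount of 0.1 both were lost (adjusted p = 0.107 and 0.122).

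On day 6, T, HAND1 and FOXF1 were lower in CD43+ than in CD43- cells, 3 of the 8 factors, beside 7.85% of all genes called lower and 12.5% in either direction. T was at 75, 65 and 16 in CD43- and at 5, 2 and 1 in CD43+ cells. The log2 fold change was -3.74 ± 0.66 (SE, adjusted p = 3.5e-05). The groups did not overlap, but replicate 3 of the CD43- cells lay well below the other 2. The same replicate was lowest for the endothelial genes CDH5 (25876, 10844 and 5254) and SOX17 (3750, 2183 and 798) and highest for the matrix genes LUM (17368, 18772 and 37186) and POSTN (10084, 10840 and 20424), and the part of this in the T values was not tested. By day 9 T was at 6, 1 and 2 in CD43- cells. Its log2 fold change from day 6 was -3.66 ± 0.66 (SE, adjusted p = 8e-04), the only factor of the 8 called in that comparison, in which 0.657% of all genes were called lower and 1.75% in either direction. That call was lost in a fit of only the populations compared (adjusted p = 0.0989).

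HAND1 remained high in CD43- cells on every sorted day. Its CD43- samples stood at 5556, 5638 and 10436 on day 6, then at 3754, 7773 and 2846 (day 9), 2774, 5250 and 2650 (day 12) and 8678, 7486 and 7773 (day 16). Its CD43+ samples stood at 220, 254 and 502 on day 6, then at 24, 44 and 88 (day 9), 24, 24 and 30 (day 12) and 94, 80 and 40 (day 16). No CD43+ sample reached the level of any CD43- sample. The log2 fold changes of CD43+ over CD43- cells were -4.50, -6.55, -6.98 and -6.87 on days 6, 9, 12 and 16 (SE 0.48 each, adjusted p from 1.72e-08 on day 6 to 9.13e-13 on day 12). The change of this difference between day 6 and day 16, -2.37 ± 0.68 (log2, SE, adjusted p = 0.00519), was itself called, but not at a pseudocount of 0.1 (adjusted p = 0.0798). Of the 8 factors, 1 was called lower in that test (9.69% of all genes) and 2, T and MESP1, higher (9.50%, and 19.2% in either direction).

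FOXF1 followed the same division. Its CD43- samples stood at 404, 484 and 803 on day 6, then at 527, 754 and 602 (day 9), 577, 512 and 1146 (day 12) and 230, 262 and 360 (day 16). The CD43+ samples of the same days stood at 10, 16 and 24, at 20, 18 and 40, at 106, 85 and 45, and at 2, 3 and 3. The log2 fold changes were -5.01, -4.61, -3.22 and -6.27 (SE 0.35 each, adjusted p from 4.83e-09 on day 12 to 1.01e-14 on day 16), and the groups did not overlap on any day. In the CD43- fraction neither HAND1 nor FOXF1 was called between successive sorted days, with log2 differences of 1.24 ± 0.48 for HAND1 (SE, adjusted p = 0.0375) and -1.32 ± 0.35 for FOXF1 (SE, adjusted p = 0.00287) from day 12 to day 16, both under the 4-fold threshold. Markers of other cell types were compared between the sorted cells as well. Over all genes, 7.85%, 12.8%, 14.4% and 13.6% were called lower in CD43+ cells on days 6, 9, 12 and 16. On days 9 and 16, 8.65% and 12.2% were called higher. Of 10 mesenchymal markers, 7 were called lower in CD43+ cells on day 6 and 10 on each later day, with sums of 201653 to 247465 in day 6 CD43- and 59714 to 156286 in day 6 CD43+ cells. On day 16 these sums were 322256 to 326984 and 7747 to 16221. Of 13 trophoblast and amnion markers, 7, 9, 10 and 10 were called lower on days 6, 9, 12 and 16. On each of days 6, 9 and 16, 1 was called higher. The sums over the 14 listed in the table were 53423 to 95717 in day 12 CD43- and 2102 to 2697 in day 12 CD43+ cells. In those CD43- samples GATA3 was at 749 to 1370, TFAP2A at 283 to 1026, VTCN1 at 742 to 1402 and GATA2 at 258 to 692. Other genes of the list thus made up most of that sum. Of 12 endoderm markers 9, 9, 7 and 8 were called lower on days 6, 9, 12 and 16, with 1 called higher, on day 12. Of 10 endothelial markers 1, 5, 6 and 7 were called lower on those days and 0 higher, and on day 6 this was near the share of all genes. The part of these cell types in the HAND1 and FOXF1 differences was not tested.

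The other lateral plate factors were mostly lower in CD43+ cells too. Of the 22, those called lower numbered 12, 19, 20 and 19 on days 6, 9, 12 and 16, and 1 was called higher, on day 9. The medians were -2.45, -4.47, -6.34 and -5.15, beside 0.14, 0.24, 0.22 and 0.14 over all genes. HAND2 was at 1178 to 2599 in day 6 CD43- and 162 to 354 in day 6 CD43+ cells, and at 3456 to 4543 and 25 to 62 on day 16.

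**Figure D3:**
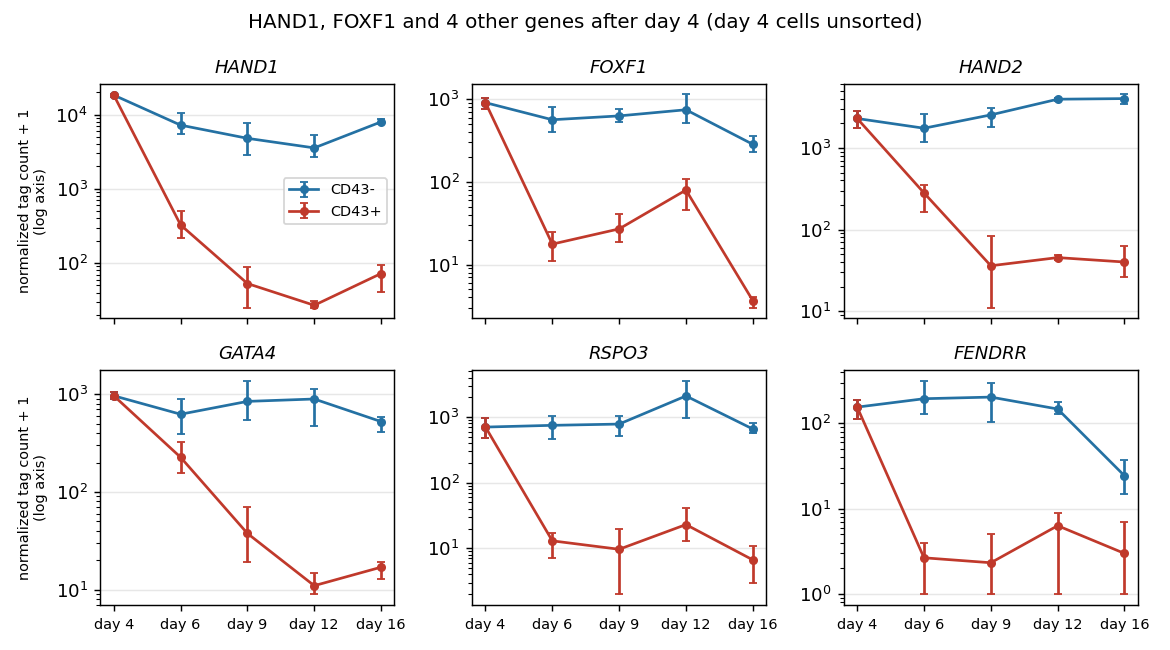
Normalized tag count + 1 (log axis) of HAND1, FOXF1, HAND2, GATA4, RSPO3 and FENDRR in unsorted day 4 cells and in CD43- (blue) and CD43+ (red) cells from day 6 to day 16. Points are means of 3 replicates and bars run from the lowest to the highest replicate. From day 6 on, each gene is higher in CD43- than in CD43+ cells, and the log2 fold change of HAND1 in CD43+ over CD43- cells is -4.50 on day 6 and -6.87 on day 16.

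The remaining factors were low after day 6. On day 9, 3 of the 8 factors were called lower in CD43+ cells (12.8% of all genes) and 1 higher (8.65%, and 21.5% in either direction). MIXL1 was at 34, 12 and 28 in CD43- and at 1, 6 and 6 in CD43+ cells, which gave a log2 fold change of -2.36 ± 0.94 (SE, adjusted p = 0.0302). The call was lost without CD43- replicate 1 (adjusted p = 0.0943) or 3 (0.075) or CD43+ replicate 1 (0.147), and at a pseudocount of 0.1 (0.107) or 10 (log2 fold change of -1.24). MESP1 was the factor higher in CD43+ cells, at 18, 18 and 8 beside 2, 3 and 1 in CD43- cells, which gave a log2 fold change of 2.36 ± 0.62 (SE, adjusted p = 0.00157). On day 16 MESP1 was at 11, 4 and 14 in CD43+ cells and listed at 0 in all CD43- cells (adjusted p = 4.15e-05), and it was the 1 factor called higher on that day (12.2% of all genes) beside 2 called lower (13.6%, and 25.8% in either direction). All these MESP1 values were far below those of day 2, and at a pseudocount of 10 neither call remained. In neither comparison taken alone did MESP1 reach 10 in 3 samples. It passed the filter through samples of other populations, and a fit of only the populations compared could not test it.

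TBX6 kept a low level in all later populations, from 20 to 196. On day 16 it was at 196, 164 and 179 in CD43+ and at 78, 91 and 99 in CD43- cells, without overlap, and the log2 difference of 1.0 ± 0.31 (SE, adjusted p = 0.00527) was under the 4-fold threshold. In the order of its population means, day 2 stood first and day 16 CD43+ cells next, ahead of day 0. The samples of day 2 and of day 16 CD43+ cells each lay above all samples of the next population in this order, and those of day 0 and day 4 overlapped. For T, MIXL1 and EOMES the order began with day 2 and day 4. From the fourth mean of T and the third of MIXL1 and EOMES onwards, most neighbours in the order overlapped.

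On day 12, GSC, HAND1 and FOXF1 were called lower in CD43+ cells (3 of 8, beside 14.4% of all genes, and 26.2% in either direction), and the GSC call rested on 1 library. GSC was at 78, 0 and 4 in day 12 CD43- cells and at 1, 0 and 0 in day 12 CD43+ cells. The log2 fold change was -2.54 ± 0.83 (SE, adjusted p = 0.00869), and without CD43- replicate 1 the log2 fold change was -0.83 (adjusted p = 0.203). The calls of GSC in CD43- cells between days 9 and 12 (1 of 8 factors higher, beside 4.52% of all genes, and 7.33% in either direction) and between days 12 and 16 (1 lower, beside 5.97%, and 10.4% in either direction) were likewise lost without that replicate (adjusted p = 0.107 and 0.103). In none of these comparisons taken alone did GSC reach 10 in 3 samples, so a fit of only the populations compared could not test it. In replicate 1 of day 12 CD43- cells MIXL1 was at 62 (3 and 0 in the other replicates), EOMES at 28 (0 and 0) and T at 12 (1 and 0). Among other genes, looked up after these values were seen, several early ones were also highest there, with CER1 at 136 (2 and 6), POU5F1 at 397 (44 and 48), NANOG at 46 (8 and 14) and SOX2 at 30 (4 and 2). Early genes were not all highest in it, since CDX2 was at 213 (327 and 215) and APLNR at 712 (738 and 862), and some genes of later lineages were, with PRRX1 at 2303 (398 and 867), TBX2 at 2394 (493 and 1510) and TFAP2A at 1026 (304 and 283). HAND1 and FOXF1 were not highest in it.

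The genes with a pattern most like each factor were found from the Pearson correlation over the 12 population means of log2(value + 1), among 15193 genes that reached a mean of 100 in some population. The points share their samples and normalization, and the values are descriptions. For T they were HMX1 (r = 0.964), DMRTA2 (0.956) and EOMES (0.95). For MIXL1 they were MSGN1 (0.941), EOMES (0.937) and T (0.935), and for EOMES they were MSGN1 (0.959), T (0.95) and HMX1 (0.949). GSC was nearest to DKK4 (0.936), CER1 (0.877) and KCNV1 (0.866), and TBX6 to WNT3A (0.927), TTC39B (0.923) and RFPL2 (0.915). MESP1 was nearest to ATP6V1H (0.934), SETD1B (0.891) and SOCS4 (0.884), genes of high level everywhere whose range was narrow. ATP6V1H, a subunit of the vacuolar proton pump, was at 686 to 728 at day 2 and at 399 to 521 at day 0.

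HAND1 was nearest to ZNF503-AS2 (0.974) and GATA4 (0.973), and FOXF1 to RSPO3 (0.954), the long noncoding RNA gene FENDRR (0.928) and CDX2 (0.928). HAND1 and FOXF1 correlated with each other at 0.912, and with the 6 other factors at -0.035 to 0.412. The 6 others correlated among themselves at 0.715 to 0.95. The nearest genes depend on the measure, since by Spearman's rho 0 of the 3 remained the same for each of the 8 factors.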

How the data were processed

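Total RNA of H1 cells was sequenced in 34 samples. Per the methods, the authors mapped reads with bowtie2 and quantified genes of an Ensembl annotation with RSEM, and then corrected the values for GC content and equalised samples with EDASeq (the submitters' processing notes also name bcl2fastq, STAR 2.7 and hg38, without their role). The deposited whole numbers are taken here as a score on an arbitrary scale, so that no count model or counting interval applies. Whether counting used strand is not stated.

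The log2 of each value, after a pseudocount of 1, was tested with the package limma (3.58.1, under R 4.3.3, empirical Bayes with trend), in 1 fit of the 33 samples of the 11 replicated populations without a replicate block. Genes had to reach 10 in 3 or more samples, which 19788 did, all 8 factors among them, and p-values were adjusted over all of them by the method of Benjamini and Hochberg. Fold changes are on the log2(value + 1) scale and understate the change of low genes. A call needed an adjusted p-value under 0.05 together with a change of more than 4-fold. The undifferentiated sample, without replicate, entered no test. The methods give the replicates as independent, and the labels give only their numbers. The procedure was tested on simulated data.

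The 8 factors and the 13 other lists were chosen with earlier results of these data known. Genes named besides the factors were the 3 most like each factor, the up to 3 called genes of each list with the largest change between days 0 and 2 or days 2 and 4, and defining markers. 1 gene that this rule names is not reported here. Deviations of same-numbered samples correlated above 0.1 across genes in every pair only for CD43+ and CD43- cells of day 6 (r of 0.198, 0.109 and 0.199). On day 12 these r values were 0.0843, 0.108 and 0.0389, and those of unlike numbers were -0.00719 or lower. A cut at 0.1 thus does not exclude pairing on other sorted days, and the main fit used none. Alternatives were pseudocounts of 0.1 and 10, other filters and scalings, a 2-fold threshold, a replicate block, fits restricted to the compared populations, robust variances and leaving out each replicate.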

Additional observations from a re-analysis of the deposited data

Results flagged for a closer look

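The difference between CD43+ and CD43- cells changed from day 6 to day 16 for 3 of the 8 factors, tested as an interaction in limma, beside 19.2% of all genes called in either direction. For T the change was 5.32 ± 0.93 (log2, SE, adjusted p = 3.48e-05). T was at 75, 65 and 16 in day 6 CD43- and at 5, 2 and 1 in day 6 CD43+ cells, but on day 16 it was listed at 0 in each CD43- sample and at 2 in each CD43+ sample, so that its day 16 side rests on values next to 0. The changes of T and of MESP1 are fitted on the log2(value + 1) scale against a group listed at 0 and are no folds. For MESP1 the change was 2.34 ± 0.88 (log2, SE, adjusted p = 0.0294). Its day 16 CD43- samples were also all listed at 0, and the call was lost without day 6 CD43- replicate 1 (adjusted p = 0.109), day 6 CD43+ replicate 2 (0.109), or day 16 CD43+ replicate 1 (0.0614) or 3 (0.0794), at a pseudocount of 10 (0.298) and in a fit of only the populations compared (0.0518). For HAND1 the change was -2.37 ± 0.68 (log2, SE, adjusted p = 0.00519), from a CD43 difference of -4.50 on day 6 to -6.87 on day 16, with all samples well above 0. This call was lost at a pseudocount of 0.1 (adjusted p = 0.0798). HAND1 was at 220 to 502 in day 6 and at 40 to 94 in day 16 CD43+ cells. For FOXF1 the change of -1.25 ± 0.49 (log2, SE, adjusted p = 0.0358) was under the 4-fold threshold.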

How the results depend on the processing

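Of 47 called results of single factors, 34 were called under every alternative and 13 were lost under at least 1. The numbers of factors called between days 0 and 2 (8) and between days 2 and 4 (7) were the same under every alternative. Day 6 CD43- cells against day 4 had 2 factors called, 1 at a pseudocount of 0.1 and 4 at a fold change above 2. CD43+ against CD43- cells had 4 on day 9, 2 at a pseudocount of 10, and 3 on day 16, 5 at a pseudocount of 0.1 and 5 at a fold change above 2. In CD43- cells from day 9 to day 12 the 1 factor called (GSC) became 0 at a pseudocount of 10. A fit of only the populations compared turned the 1 factor (T) from day 6 to day 9 into 0. In such a fit from day 9 to day 12, 0 factors were called, but GSC did not reach 10 in 3 samples and was not tested. From day 12 to day 16 the 1 factor became 3 at a pseudocount of 0.1, 0 at a pseudocount of 10, 4 at a fold change above 2 and 0 to 3 when leaving out 1 replicate. In the fit of only the populations compared 0 were called, and GSC was again not tested there. The TBX6 difference between day 4 and day 0 ranged from -0.17 to 0.10 when leaving out 1 replicate, and changed sign without 1 replicate of day 0 (1 or 2) or day 4 (3). At a pseudocount of 0.1 the calls of MIXL1 at day 4 against day 0, in both day 6 populations against day 4 and on day 9 were lost, as was HAND1's change of the CD43 difference (adjusted p = 0.0798). The cause was not tested.

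The replicate number as a block was fitted over all 33 samples and was not limited to day 6. With it, 3 factors were called between CD43+ and CD43- cells of day 6, as without it, and the block changed no other call of a factor. A block shared by all days cannot isolate a pairing within a single day, so the effect of such pairing was not tested.

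Over all genes, a pseudocount of 10 gave 843 called genes between days 0 and 2 (main 1559), 1063 between days 2 and 4 (1879) and 1752 between days 0 and 4 (2828), and a fold change above 2 gave 3697, 3866 and 5546. In the other comparisons the lowest and highest counts were 666 and 4270 for day 6 CD43- against day 4 (main 1526), 1495 and 5916 for day 6 CD43+ against day 4 (2874), 1458 and 5369 for the CD43 difference on day 6 (2480), 2731 and 8240 on day 9 (4253), 3528 and 8985 on day 12 (5176), 3553 and 8977 on day 16 (5101), 54 and 747 in CD43- cells between days 6 and 9 (347), 384 and 3538 between days 9 and 12 (1450), 707 and 4765 between days 12 and 16 (2065), and 2628 and 6595 for the change of the CD43 difference (3798). Depth is unknown, and values near 0 limit what can be said of the later levels of T, EOMES, GSC and MESP1.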
